A study of Homo sapiens with 24 samples.

Results

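TSC22D3, SGK1, FKBP5, ZBTB16, KLF9 and CEBPD are 6 genes known to respond to both androgens and glucocorticoids, the latter through the glucocorticoid receptor (NR3C1). They were chosen for that shared regulation, with earlier results of these data known, and all 6 were found among the 23946 gene names of the deposited tables and passed the filters on low values in both experiments. LNCaP, an androgen-responsive human prostate cancer line, had been kept for 3 days in charcoal-stripped serum, which is depleted of steroids, before each treatment, and RNA was sequenced after poly(A) selection. In the ligand experiment the cells received 10 nM dihydrotestosterone (DHT) or 10 μM enzalutamide (MDV) for 4 h or 24 h, or vehicle. The labels give vehicle no time, and the same vehicle libraries are the control of both times. Whether time in culture was matched is therefore not known. DHT is a potent natural androgen, and enzalutamide is an antiandrogen used in prostate cancer. Each of 5 conditions is given as 2 libraries, for vehicle after the 4 deposited samples were combined as described under processing. In the siRNA experiment cells were transfected with siControl or siGATA2, a pool against the pioneer factor GATA2, and received vehicle or 25 μM enzalutamide 72 h later for 24 h, with 3 libraries in each of 4 conditions. No condition of either experiment added a glucocorticoid.

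NR3C1 is a steroid receptor. Without ligand it is held by HSP90 chaperone complexes in the cytoplasm, and with ligand it enters the nucleus and binds as a dimer to a DNA element made of a pair of AGAACA-like half-sites, arranged head to head around a 3-base spacer. The members are best known from glucocorticoid-treated cells, where most are induced within hours, and several are also induced by androgen in prostate epithelium. FKBP5 encodes an HSP90 co-chaperone that lowers the ligand affinity of the glucocorticoid receptor. SGK1 is a serum- and glucocorticoid-regulated kinase of the AKT-related family. TSC22D3, also called GILZ, is a leucine-zipper protein that mediates part of the anti-inflammatory action of glucocorticoids. ZBTB16 (PLZF), KLF9 and CEBPD are transcription factors with a BTB zinc-finger, a Krüppel-like and a bZIP structure.

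The ligand libraries held 38.9 to 60.0 M estimated counts. The siRNA tables give RPKM (reads scaled to gene length and library size), and steps between their lowest values showed that the deepest of the 12 libraries had 1.31 times the depth of the shallowest. Levels of the ligand experiment are given as CPM (counts scaled to library size with edgeR's TMM factors), which allow a gene to be compared between conditions, and levels are compared between genes only in RPKM. A gene was called at a Benjamini-Hochberg adjusted p below 0.05, from edgeR's quasi-likelihood test for counts and from limma on log2(RPKM + 0.1) for the siRNA experiment. Changes are log2 fold changes ± SE, and those on the RPKM scale understate the change of genes near 0.1 RPKM. All 7 luminal prostate markers examined were present, with summed levels of 3760 to 5750 CPM. The basal markers KRT5, KRT14 and TP63 together reached at most 0.472 CPM, and the leukocyte marker PTPRC at most 0.101 CPM. The 4 stromal markers summed to 14.4 to 29.5 CPM, with the defining COL1A2 and DCN below 0.1 CPM on average, and the 2 endothelial markers to 8.57 to 20.8 CPM, with PECAM1 below 0.1 CPM. VWF, the other endothelial marker, moved with treatment, by -0.87 ± 0.07 with enzalutamide at 24 h, 0.40 ± 0.06 with DHT at 24 h and -0.96 ± 0.10 with enzalutamide in siControl cells. The stromal marker COL1A1 moved by -0.65 ± 0.09 with DHT at 24 h, and the part of these markers in the results was not tested. The column headers of the ligand experiment carry 3 prefixes, which the labels do not explain. Each prefix is taken here as a sequencing set. Both libraries of enzalutamide at 4 h, of enzalutamide at 24 h and of DHT at 4 h each shared 1 prefix. Time and set, and at 4 h ligand and set, therefore cannot be fully told apart. The 2 enzalutamide libraries of 4 h stood apart from each other, with a mean chi-square of 9.82 for each gene against 2.03 to 4.57 for the other treated pairs. The calls of TSC22D3, FKBP5 and ZBTB16 at that time, described below, held with either of these libraries left out. The study calls the ligand replicates biological without saying how they were cultured, and it does not state the nature of the siRNA replicates. Each p-value tests a difference against the spread between such libraries, as the models estimate it. In bulk RNA, a change in every cell and a change in a part of the cells cannot be told apart.

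GATA2 RNA, the target of the siRNA pool, was at 83.8, 77.0 and 86.1 RPKM in siControl cells under vehicle and at 54.3, 53.4 and 46.6 RPKM in siGATA2 cells. The groups did not overlap, and 62.5% of the mean level remained. Under enzalutamide, siControl cells had 128.5, 131.5 and 127.8 RPKM and siGATA2 cells 60.1, 64.7 and 61.5 RPKM, or 48.1%. The knockdown was therefore partial at the RNA level, and every siGATA2 result below describes cells with that remainder. GATA2 itself rose with 25 μM enzalutamide in siControl cells (log2 fold change 0.65 ± 0.06, adjusted p = 1.17e-05). In the separate ligand experiment, with 10 μM and no transfection, it fell by 0.39 ± 0.05 at 4 h (adjusted p = 0.000198) and by 0.19 ± 0.05 at 24 h (adjusted p = 0.00892).

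NR3C1 RNA was scarce in every library. It had 29 and 24 estimated counts under vehicle (0.479 and 0.609 CPM), 86 and 96 after 4 h of enzalutamide and 74 and 83 after 24 h. DHT left it at 40 and 32 counts at 4 h and at 29 and 13 at 24 h. Enzalutamide raised NR3C1 by 1.89 ± 0.23 at 4 h (adjusted p = 0.000184) and by 1.55 ± 0.23 at 24 h (adjusted p = 0.000229), and the change with DHT was not called at either time (0.34 ± 0.26 and -0.26 ± 0.29). The study singled NR3C1 out from these same libraries, so its rise here is not independent evidence. In the siRNA libraries the smallest whole numbers of reads that its RPKM values allow were 6, 4 and 3 in siControl cells under vehicle, 16, 15 and 25 under enzalutamide, 8, 8 and 12 in siGATA2 cells under vehicle, and 6, 9 and 14 under enzalutamide.

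**Figure D1:**
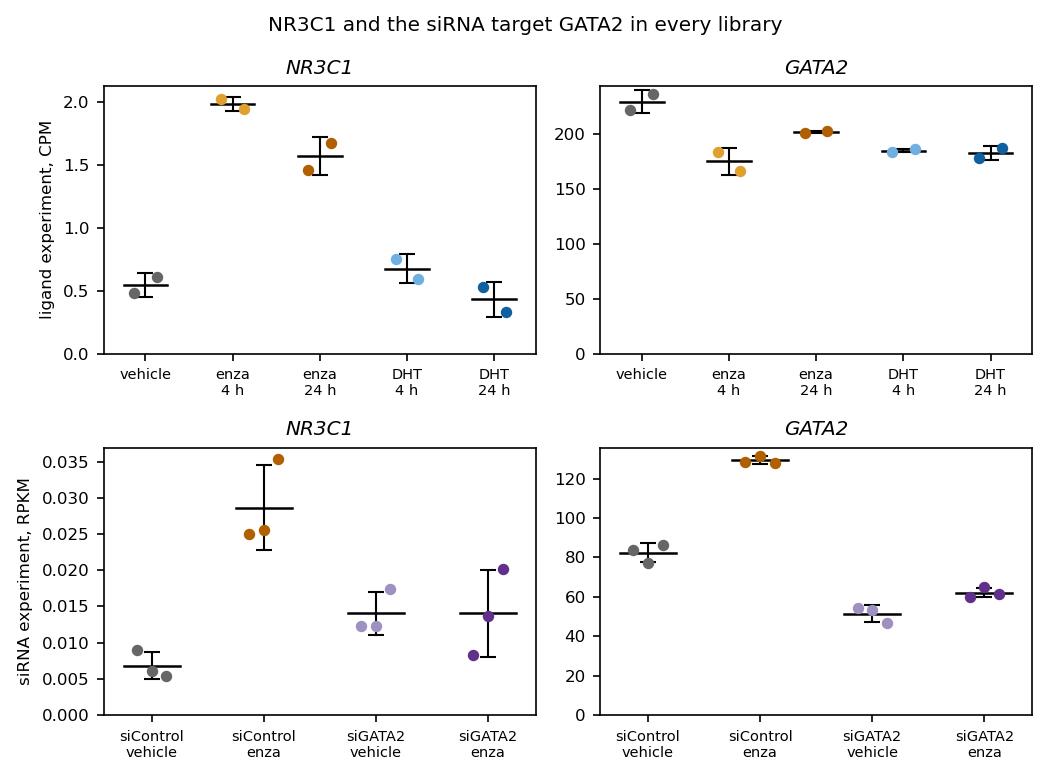
Levels of NR3C1 and GATA2 in every library, in CPM for the ligand experiment (upper row) and RPKM for the siRNA experiment (lower row); points are libraries, horizontal lines means, and bars 1 SD (n = 2 and n = 3). NR3C1 stands at 1.46 to 2.02 CPM in the enzalutamide libraries against at most 0.754 CPM in the others, and GATA2 in siGATA2 cells retains 62.5% of its mean under vehicle.

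The start regions of the members were searched for the letters of this element, since 5 of the members rose together after 4 h of DHT. RefSeq windows (GRCh38.p14) from 250 bases before to 50 after a transcript start were available for 4 members, with 10 windows in all, namely 4 for TSC22D3, 3 for SGK1, 2 for FKBP5 and 1 for KLF9. ZBTB16 and CEBPD were not examined. The half-site AGAACA, searched on both strands, occurred in 2 of the 10 windows, 1 of FKBP5 and 1 of SGK1, and it occurred in 14.8% of 35116 windows of all genes. The full element, AGAACA followed by any 3 bases and TGTTCT, was in none of the 10 and in 1 of the 35116 windows. AGATAA, the only form of the GATA motif searched, was in none of the 10 and in 10.3% of all windows. Other sequences with GATA, such as AGATAG in the FKBP5 stretch shown, were not counted. Both stretches with a match are shown from 250 bases before to 30 after the start, in the direction of transcription, with the matched half-site in capitals. The FKBP5 stretch is chr6:35728554-35728833 and the SGK1 stretch is chr6:134177832-134178111, both on the minus strand.
FKBP5: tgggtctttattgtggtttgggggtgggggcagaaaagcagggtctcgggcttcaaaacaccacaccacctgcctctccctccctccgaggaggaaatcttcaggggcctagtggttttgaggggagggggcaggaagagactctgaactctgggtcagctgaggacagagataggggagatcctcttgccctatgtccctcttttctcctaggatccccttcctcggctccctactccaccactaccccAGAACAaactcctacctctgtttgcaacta
SGK1: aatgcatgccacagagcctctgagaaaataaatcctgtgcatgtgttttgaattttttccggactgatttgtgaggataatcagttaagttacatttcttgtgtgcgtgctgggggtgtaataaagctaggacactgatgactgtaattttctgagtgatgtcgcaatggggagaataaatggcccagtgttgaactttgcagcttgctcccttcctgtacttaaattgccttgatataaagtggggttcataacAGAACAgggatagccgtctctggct

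The FKBP5 half-site lies on chromosome 6 from 35728578 to 35728583, at the first transcribed bases of the most upstream of its 4 annotated transcripts, in a non-coding exon. The SGK1 half-site lies from 134177851 to 134177856 and starts 6 bases into the transcript. That position is inside 6 of the 30 annotated SGK1 transcripts and is exonic but non-coding in 2 of them (GENCODE v29). A match is a description of letters and says nothing of binding, and elements outside these windows were not examined.

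TSC22D3 has 17 annotated transcripts on the minus strand of chromosome X from 107713221 to 107777342 (GRCh38, GENCODE v29), while the deposited values are 1 per gene, made with an annotation not known here. The primers that the study used for its quantitative RT-PCR of the gene are shown because they match only part of these transcripts.
Forward primer: gcagaccgctaactagctca
Reverse primer: agggtgcctggaaaagacaa

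The forward primer matched 2 of the 17 transcripts, both with upstream starts, and the reverse primer matched 9.

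FKBP5, the co-chaperone, rose with DHT at both times and fell with enzalutamide at both times. Its level was 91.7 and 89.5 CPM under vehicle, 207.1 and 204.2 CPM after 4 h of DHT, and 348.2 and 343.7 CPM after 24 h. With enzalutamide it was 77.0 and 75.3 CPM at 4 h and 66.2 and 62.8 CPM at 24 h. The 5 conditions formed an order without overlap, from DHT at 24 h down to enzalutamide at 24 h. The changes against vehicle were 1.18 ± 0.04 for DHT at 4 h (adjusted p = 2.3e-10) and 1.93 ± 0.04 at 24 h (adjusted p = 6.54e-13), the latter 3.82-fold. FKBP5 was the only member with a further called rise between 4 h and 24 h of DHT (0.75 ± 0.04, adjusted p = 4.5e-09). Enzalutamide lowered it by 0.25 ± 0.04 at 4 h (adjusted p = 0.00101) and by 0.49 ± 0.04 at 24 h (adjusted p = 4.68e-07), and the fall from 4 h to 24 h was called as well (-0.24 ± 0.04, adjusted p = 0.000602).

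In siControl cells FKBP5 was at 10.2, 10.6 and 10.3 RPKM under vehicle and at 6.39, 6.07 and 5.91 RPKM under 25 μM enzalutamide, a log2 change of -0.75 ± 0.03 (adjusted p = 3.9e-08). In siGATA2 cells it was at 8.19, 8.26 and 8.30 RPKM under vehicle and at 7.68, 7.74 and 7.84 RPKM under enzalutamide. These last groups did not overlap, but the difference of -0.09 ± 0.03 was not called (adjusted p = 0.315). The effect of enzalutamide differed between siGATA2 and siControl cells by 0.66 ± 0.04 (interaction, adjusted p = 4.69e-06). siGATA2 lowered FKBP5 by 0.33 ± 0.03 under vehicle (adjusted p = 4.78e-06) and raised it by 0.34 ± 0.03 under enzalutamide (adjusted p = 3.76e-06), so that siGATA2 cells had 79.6% of the siControl mean in vehicle and 127.0% under enzalutamide.

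ZBTB16, a BTB zinc-finger repressor, followed the same directions as FKBP5 but peaked earlier. It was at 36.04 and 35.5 CPM under vehicle, 125.0 and 126.3 CPM after 4 h of DHT, and 79.5 and 76.9 CPM after 24 h. Enzalutamide libraries had 26.4 and 26.9 CPM at 4 h and 27.6 and 26.96 CPM at 24 h. Both DHT times lay above vehicle and both enzalutamide times below it. DHT raised ZBTB16 by 1.81 ± 0.04 at 4 h (3.51-fold, adjusted p = 8.36e-12) and by 1.13 ± 0.04 at 24 h (adjusted p = 2.34e-10), and from 4 h to 24 h it fell by 0.68 ± 0.04 (adjusted p = 2.03e-08). Enzalutamide lowered it by 0.43 ± 0.04 at 4 h (adjusted p = 5.91e-05) and by 0.39 ± 0.04 at 24 h (adjusted p = 1.93e-05), and these times did not differ by a called amount (0.03 ± 0.05, adjusted p = 0.627).

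For ZBTB16 in the siRNA experiment, siControl cells had 7.10, 6.84 and 7.06 RPKM under vehicle and 4.54, 4.89 and 4.60 RPKM under enzalutamide, a log2 change of -0.57 ± 0.05 (adjusted p = 1.02e-05). siGATA2 cells had 5.98, 5.67 and 5.204 RPKM under vehicle and 4.92, 5.12 and 4.80 RPKM under enzalutamide. That difference of -0.18 ± 0.05 was not called (adjusted p = 0.229), and the effects in both kinds of cell differed by 0.39 ± 0.07 (interaction, adjusted p = 0.00293). siGATA2 lowered ZBTB16 under vehicle by 0.31 ± 0.05 (adjusted p = 0.000343). Under enzalutamide the siControl and siGATA2 libraries overlapped, and the difference was 0.08 ± 0.05 (adjusted p = 0.221).

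SGK1, the kinase, showed the largest single rise of the members, and most of it was gone at 24 h. Its estimated counts were 54 and 45 under vehicle, 575 and 528 after 4 h of DHT, and 87 and 48 after 24 h. In CPM these are 0.892 and 1.14, then 10.8 and 9.81, then 1.59 and 1.22. The libraries of 4 h of DHT stand far above all others, and those of 24 h lie just above vehicle. The rise at 4 h was 3.37 ± 0.16 (10.3-fold, adjusted p = 1.12e-08), and from 4 h to 24 h it fell by 2.85 ± 0.15 (adjusted p = 1.06e-08). At 24 h the difference from vehicle was 0.52 ± 0.20 with an adjusted p of 0.0449. That call was lost in 6 of 10 fits that left out a library, including those without DHT 24 h replicate 1 (0.29, adjusted p = 0.378) or vehicle replicate 1 (0.32, adjusted p = 0.322), with DESeq2 (adjusted p = 0.13) and with the sequencing set as a term (adjusted p = 0.102). The other 4 such libraries were both of DHT at 4 h and both of enzalutamide at 24 h, with adjusted p-values of 0.0543 to 0.0601.

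Enzalutamide libraries had 40 and 54 SGK1 counts at 4 h and 33 and 38 at 24 h, and neither time was called against vehicle (0.03 ± 0.21 and -0.49 ± 0.22, adjusted p = 0.941 and 0.109). In the siRNA experiment SGK1 was the lowest member. The smallest whole numbers of reads its values allow were 49, 83 and 61 in siControl cells under vehicle, 49, 26 and 44 under enzalutamide, 35, 37 and 54 in siGATA2 cells under vehicle, and 41, 31 and 33 under enzalutamide. In RPKM the 4 groups lay between 0.106 and 0.302, close to the 0.1 added before the logarithm, and the ranges of neighbouring groups overlapped throughout. SGK1 was called lower with enzalutamide in siControl cells (-0.49 ± 0.16, adjusted p = 0.0289) and with siGATA2 under vehicle (-0.46 ± 0.16, adjusted p = 0.0299). The first call was lost without siControl enzalutamide replicate 2 or 3 or siControl vehicle replicate 2 or 3, with adjusted p-values up to 0.109. The second was lost without siControl vehicle replicate 2 or 3 or siGATA2 vehicle replicate 1 or 2, with adjusted p-values up to 0.112.

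TSC22D3 ran in the opposite direction to the androgen-induced members, rising with enzalutamide and falling with DHT. It was at 50.8 and 46.7 CPM under vehicle, 84.1 and 81.8 CPM after 4 h of enzalutamide, and 98.7 and 100.5 CPM after 24 h. DHT libraries had 40.0 and 37.8 CPM at 4 h and 40.6 and 42.9 CPM at 24 h. Every enzalutamide library lay above, and every DHT library below, both vehicle libraries. Enzalutamide raised it by 0.76 ± 0.05 at 4 h (1.7-fold, adjusted p = 1.3e-06) and by 1.03 ± 0.05 at 24 h (2.04-fold, adjusted p = 4.24e-09), with a called rise of 0.26 ± 0.05 between the times (adjusted p = 0.00157). DHT lowered it by 0.33 ± 0.05 at 4 h (adjusted p = 0.00119) and by 0.23 ± 0.05 at 24 h (adjusted p = 0.0026). TSC22D3 is one of the genes the study selected as enzalutamide-induced from these libraries, so this rise is not independent evidence either.

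In siControl cells TSC22D3 was at 33.1, 31.2 and 33.4 RPKM under vehicle and at 90.1, 92.3 and 92.6 RPKM under enzalutamide, a rise of 1.49 ± 0.04 (2.81-fold, adjusted p = 6.8e-09). In siGATA2 cells it went from 21.5, 22.7 and 20.6 RPKM to 29.6, 31.8 and 29.99 RPKM, a rise of 0.50 ± 0.04 (1.41-fold, adjusted p = 0.000769). The siGATA2 libraries under enzalutamide thus overlapped the siControl libraries under vehicle. Both effects of enzalutamide differed by -0.99 ± 0.06 (interaction, adjusted p = 2.29e-06). The study presents TSC22D3 as an example gene after its siRNA sequencing, so the siRNA results of this gene are not independent evidence. siGATA2 lowered TSC22D3 by 0.59 ± 0.04 under vehicle (adjusted p = 4.83e-07) and by 1.59 ± 0.04 under enzalutamide (adjusted p = 4.86e-10), which left 66.2% and 33.2% of the siControl means.

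KLF9, a Krüppel-like factor, had the narrowest span of the members over all ligand libraries (1.69-fold) and reversed its direction with time under DHT. It was at 79.0 and 75.1 CPM under vehicle, 94.5 and 92.6 CPM after 4 h of DHT, and 58.0 and 56.0 CPM after 24 h. Enzalutamide libraries had 83.6 and 85.6 CPM at 4 h and 82.0 and 81.2 CPM at 24 h. DHT raised it by 0.28 ± 0.04 at 4 h (adjusted p = 0.000603) and lowered it by 0.43 ± 0.04 at 24 h (adjusted p = 1.89e-06), and between the times it fell by 0.71 ± 0.04 (adjusted p = 2.44e-08). With enzalutamide the change was 0.13 ± 0.04 at 4 h (adjusted p = 0.0481) and 0.08 ± 0.04 at 24 h (adjusted p = 0.153). The call at 4 h was lost in 9 of 10 fits that left out a library (all but enzalutamide 4 h replicate 1, with adjusted p-values up to 0.277, without vehicle replicate 2), with DESeq2 (adjusted p = 0.0833) and with the sequencing set as a term (0.077, adjusted p = 0.371).

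KLF9 was the only member that siGATA2 raised both under vehicle and under enzalutamide. It was at 14.8, 15.0 and 14.5 RPKM in siControl cells under vehicle and at 22.1, 21.3 and 21.0 RPKM in siGATA2 cells, a rise of 0.54 ± 0.03 (adjusted p = 7.25e-08). Under enzalutamide siControl cells had 15.2, 15.1 and 16.0 RPKM and siGATA2 cells 19.0, 19.3 and 19.3 RPKM, a rise of 0.31 ± 0.03 (adjusted p = 4.55e-06). Every siGATA2 library lay above every siControl library. The effect of enzalutamide was 0.06 ± 0.03 in siControl cells (adjusted p = 0.101) and -0.16 ± 0.03 in siGATA2 cells (adjusted p = 0.0514), neither of them called, while their difference was (-0.22 ± 0.04, adjusted p = 0.00273). With library medians centred, the effect in siControl cells was 0.12 and called (adjusted p = 0.00883).

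CEBPD, a bZIP factor, rose with DHT by a like amount at both times. It was at 5.30 and 6.27 CPM under vehicle, 10.3 and 9.50 CPM after 4 h of DHT, and 9.28 and 9.15 CPM after 24 h. The rises were 0.79 ± 0.11 (adjusted p = 0.000548) and 0.68 ± 0.12 (adjusted p = 0.000285), and the times did not differ by a called amount (-0.11 ± 0.11, adjusted p = 0.444). Enzalutamide libraries had 5.13 and 4.58 CPM at 4 h and 5.76 and 4.58 CPM at 24 h, with changes of -0.24 ± 0.13 and -0.15 ± 0.12 that were not called (adjusted p = 0.235 and 0.391). The vehicle and enzalutamide libraries of 24 h overlapped.

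Among siControl cells CEBPD was at 7.93, 8.65 and 8.59 RPKM under vehicle and 9.04, 10.1 and 10.9 RPKM under 25 μM enzalutamide, and the rise of 0.25 ± 0.09 had an adjusted p of 0.0425. This call was lost in 7 of 12 fits that left out a library (siControl enzalutamide replicates 2 and 3, all siControl vehicle replicates, and siGATA2 enzalutamide replicates 1 and 3), with adjusted p-values up to 0.148. siGATA2 cells had 7.60, 6.23 and 6.29 RPKM under vehicle and 6.91, 7.75 and 6.98 RPKM under enzalutamide. siGATA2 lowered CEBPD by 0.32 ± 0.09 under vehicle (adjusted p = 0.00884) and by 0.47 ± 0.09 under enzalutamide (adjusted p = 0.000963). The interaction was not called (-0.14 ± 0.12, adjusted p = 0.467).

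**Figure D2:**
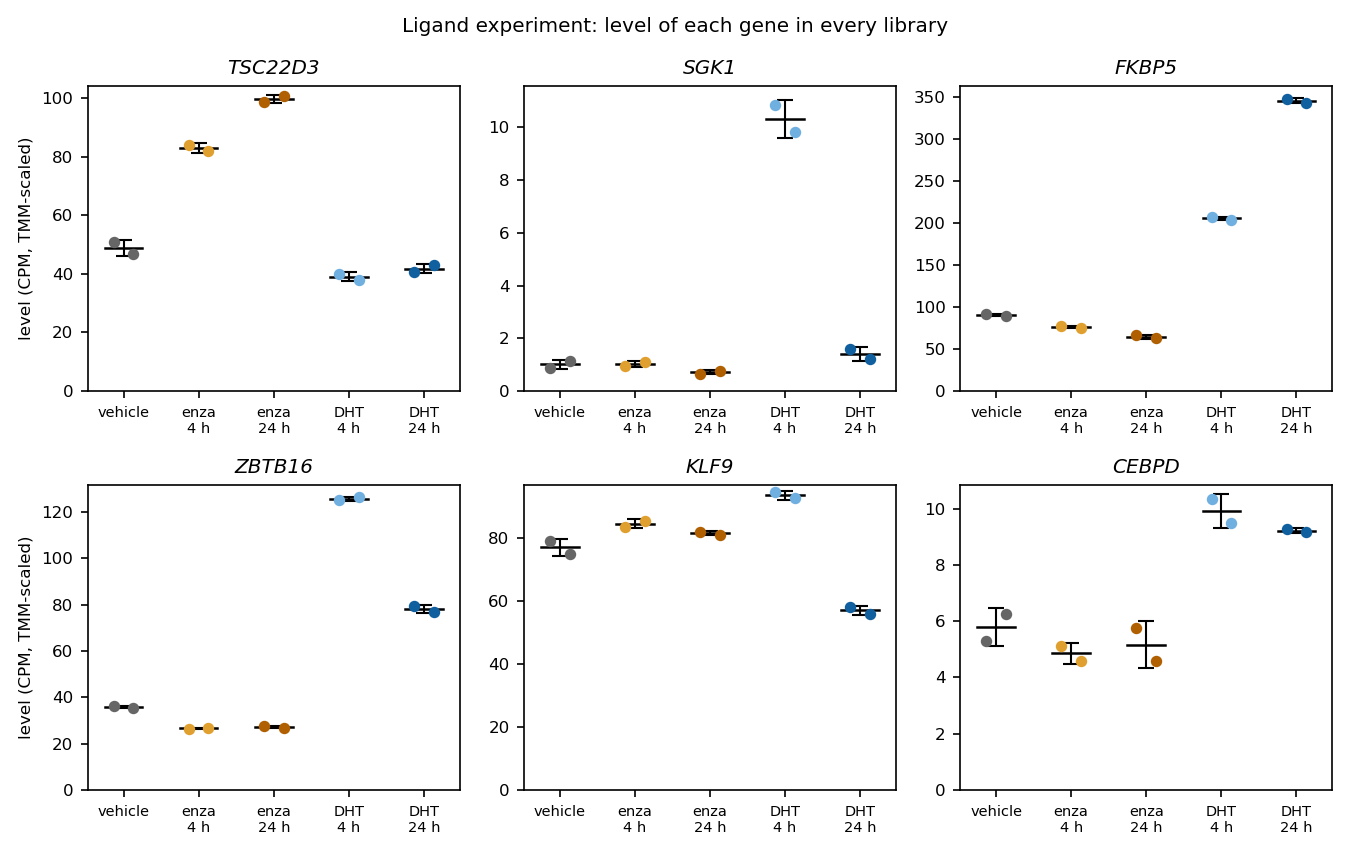
Levels of the 6 members in CPM in every library of the ligand experiment; points are libraries, horizontal lines means and bars 1 SD (n = 2), and each vertical axis starts at 0. FKBP5 is highest after 24 h of DHT (343.7 and 348.2 CPM), ZBTB16 and SGK1 after 4 h of DHT, and TSC22D3 after 24 h of enzalutamide (98.7 and 100.5 CPM).

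**Figure D3:**
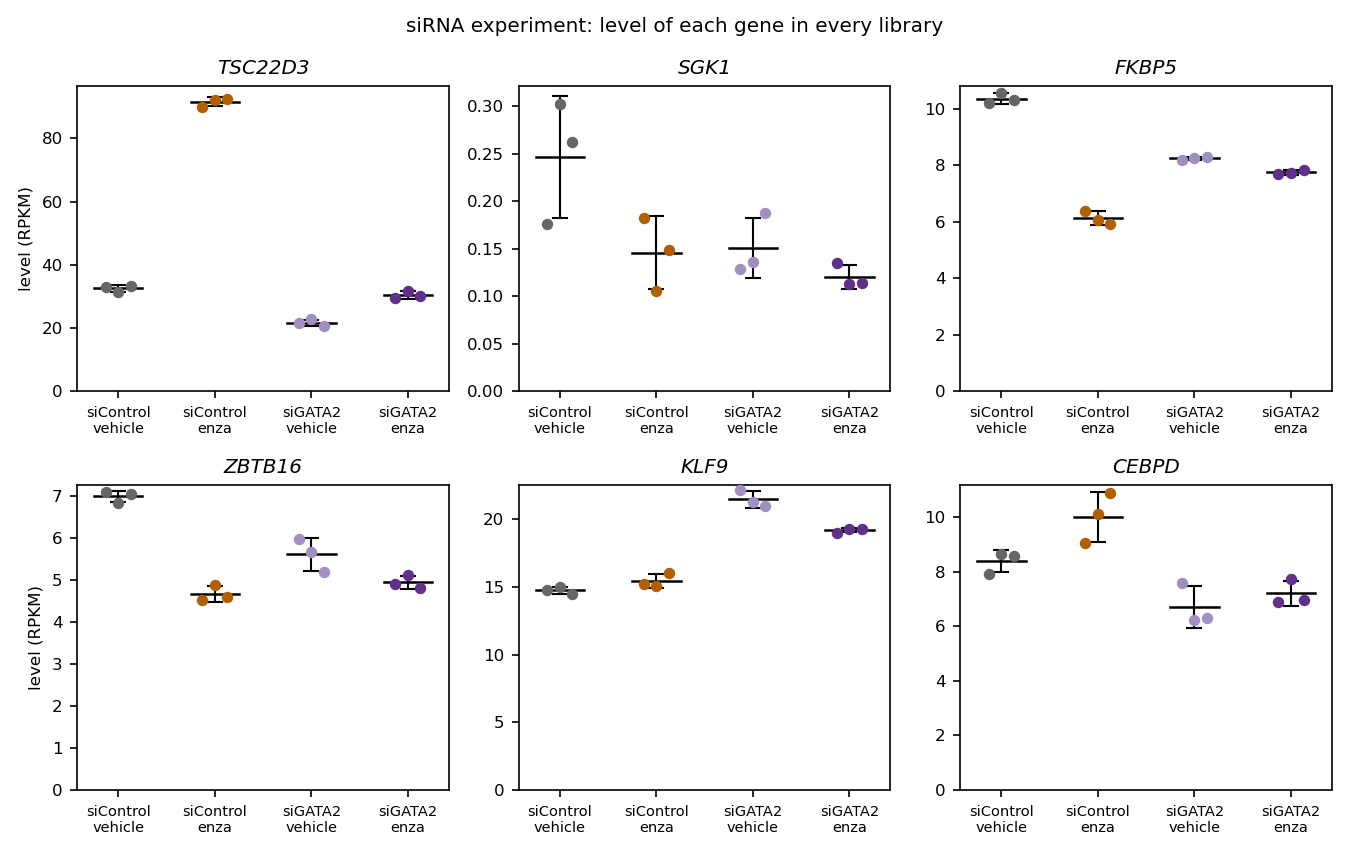
Levels of the 6 members in RPKM in every library of the siRNA experiment; points are libraries, horizontal lines means and bars 1 SD (n = 3), and each vertical axis starts at 0. TSC22D3 stands at 90.1 to 92.6 RPKM in siControl cells under enzalutamide and at 29.6 to 31.8 RPKM in siGATA2 cells, and all siGATA2 libraries of KLF9 lie above the siControl libraries.

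Per length, the order of the members in siControl cells under vehicle was TSC22D3 (32.6 ± 1.16 RPKM, SD, n = 3), KLF9 (14.8 ± 0.257), FKBP5 (10.4 ± 0.196), CEBPD (8.39 ± 0.402), ZBTB16 (6.999 ± 0.137) and SGK1 (0.246 ± 0.064). No neighbours in this order had overlapping libraries. Over all libraries of the siRNA experiment TSC22D3 lay above 93.0% of the genes tested and SGK1 above 28.3%. The span between the highest and lowest library was widest for SGK1 in the ligand experiment (16.7-fold) and narrowest for KLF9 in the siRNA experiment (1.53-fold).

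Seen by comparison, DHT at 4 h called all 6 members against vehicle. SGK1, FKBP5, ZBTB16, KLF9 and CEBPD rose, where 4.66% of the 15555 genes tested did so, and TSC22D3 fell, where 2.11% did so. The median change of the members was 0.986 and that of all genes -0.0085. By the study's own threshold of a fold over 2 with an unadjusted p below 0.05, SGK1, FKBP5 and ZBTB16 rose, as did 0.906% of all genes. At 24 h SGK1, FKBP5, ZBTB16 and CEBPD were called higher and TSC22D3 and KLF9 lower. At that time 26.9% and 23.2% of all genes were called higher and lower, which together is far more than at 4 h. FKBP5 and ZBTB16 also passed the fold threshold, against 2.08% of all genes.

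Between 4 h and 24 h of DHT, FKBP5 rose further while SGK1, ZBTB16 and KLF9 fell, with backgrounds of 26.3% called up and 23.5% called down. SGK1 was the member that fell over 2-fold, as did 2.93% of all genes. The median change of the members was -0.395.

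Enzalutamide at 4 h called TSC22D3 and KLF9 higher, against 6.94% of all genes, and FKBP5 and ZBTB16 lower, against 6.68%. No member passed the fold threshold at that time. At 24 h TSC22D3 was called higher, with a background of 16.4% (0.894% over 2-fold, which TSC22D3 also passed), and FKBP5 and ZBTB16 lower, with a background of 17.0%. From 4 h to 24 h TSC22D3 rose and FKBP5 fell, against 11.7% and 12.9% of all genes. The comparisons of DHT and of enzalutamide with vehicle share the same 2 vehicle libraries, and the member values stand side by side in the plot of fold changes without a test of their relation.

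DHT was also set against enzalutamide directly. At 4 h both DHT libraries carried 1 prefix and both enzalutamide libraries another, so ligand and sequencing set coincide there. At that time SGK1 (3.33 ± 0.16), ZBTB16 (2.24 ± 0.04), FKBP5 (1.43 ± 0.04), CEBPD (1.03 ± 0.12) and KLF9 (0.15 ± 0.04) were higher with DHT. TSC22D3 was lower (-1.09 ± 0.05). All 6 were called, where 8.49% of all genes were higher and 7.28% lower. The KLF9 call (adjusted p = 0.0279) was lost without either DHT 4 h library or without enzalutamide 4 h replicate 1, with adjusted p-values up to 0.173, and with the sequencing set as a term (adjusted p = 0.062). Past 2-fold were the first 4 of these, against 1.13% of all genes, and TSC22D3, against 0.694%. At 24 h FKBP5 (2.42 ± 0.04), ZBTB16 (1.52 ± 0.04), SGK1 (1.01 ± 0.21) and CEBPD (0.83 ± 0.12) were higher, and TSC22D3 (-1.26 ± 0.05) and KLF9 (-0.52 ± 0.04) lower. At this time 31.3% of all genes were called higher and 33.6% lower. FKBP5, ZBTB16 and SGK1 exceeded 2-fold upward, as did 5.55% of all genes, and TSC22D3 downward, as did 6.27%.

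**Figure D4:**
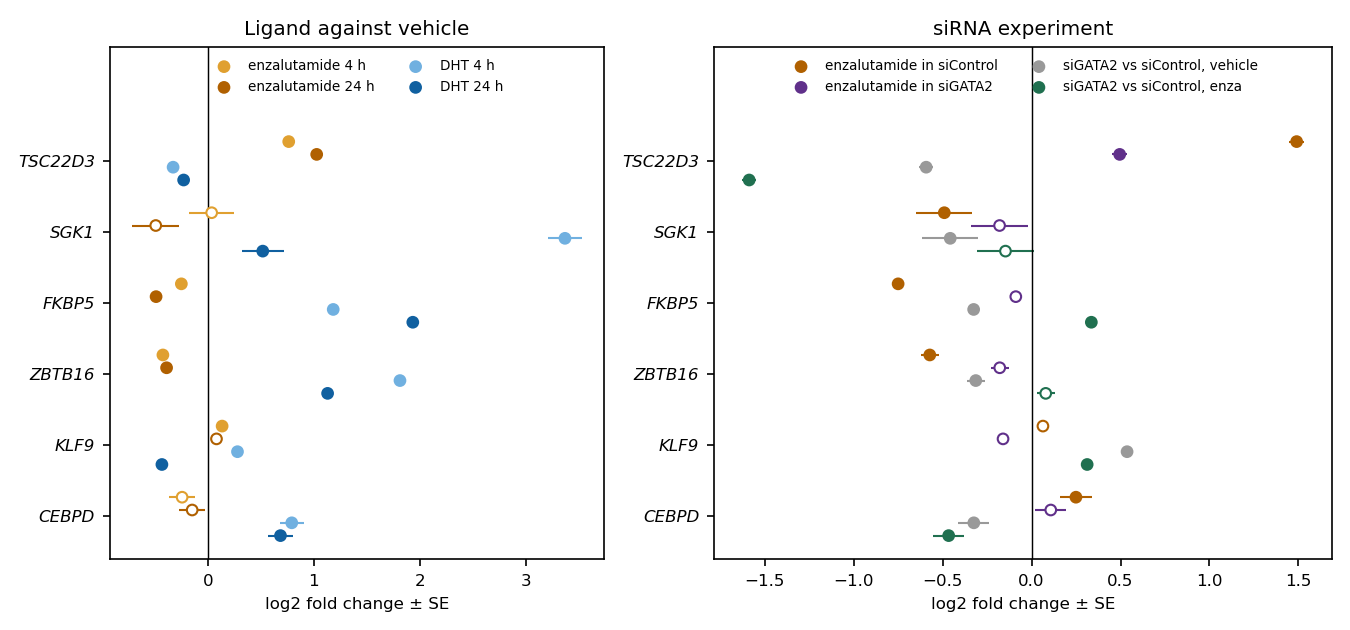
Log2 fold changes ± SE of the 6 members, against vehicle in the ligand experiment (left) and, in the siRNA experiment (right), for enzalutamide against vehicle and for siGATA2 against siControl cells; filled points have an adjusted p below 0.05 and open points do not. DHT points lie right of 0 for SGK1, FKBP5, ZBTB16 and CEBPD and left of it for TSC22D3, while for TSC22D3 the enzalutamide points lie between 0.50 and 1.49.

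In siControl cells 25 μM enzalutamide raised TSC22D3 and CEBPD, where 17.7% of 20369 genes tested were called higher, and lowered FKBP5, ZBTB16 and SGK1, where 24.4% were called lower. TSC22D3 exceeded 2-fold, as did 0.599% of all genes. In siGATA2 cells TSC22D3 alone of the members was called higher, against 0.221% of all genes. Dose and transfection differed from the ligand experiment, so the values of both experiments are given side by side without a comparison.

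siGATA2 under vehicle raised KLF9, against 24.2% of all genes, and lowered TSC22D3, SGK1, FKBP5, ZBTB16 and CEBPD, against 31.4%. Under enzalutamide it raised FKBP5 and KLF9, with a background of 26.3%, and lowered TSC22D3 and CEBPD, with a background of 28.1% (3.78% over 2-fold, which TSC22D3 passed). The interaction was positive for FKBP5 and ZBTB16, as for 15.0% of all genes, and negative for TSC22D3 and KLF9, as for 10.8%. For FKBP5 and ZBTB16 a positive value means that the fall with enzalutamide was smaller in siGATA2 cells, and for TSC22D3 a negative value means that its rise was smaller.

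Among 12 androgen-induced reference genes of LNCaP, all 12 rose with DHT at 4 h and at 24 h (4.66% and 26.9% of all genes). Among them were KLK2 (a prostate kallikrein, 4.23 ± 0.09 at 24 h) and KLK3 (prostate-specific antigen, 3.04 ± 0.05). With enzalutamide 4 of the 12 fell at 4 h and 7 at 24 h (6.68% and 17.0% of all genes). In siControl cells 10 of the 12 fell with enzalutamide (24.4% of all genes), led by KLK2 (-2.22 ± 0.13) and KLK3 (-1.47 ± 0.08). Under vehicle, siGATA2 had already lowered 8 and raised 3 of the 12 (31.4% and 24.2% of all genes). KLK2 was at -5.60 ± 0.13 and KLK3 at -5.04 ± 0.08 (means of 791.2 RPKM in siControl and 24.1 RPKM in siGATA2 cells). The interaction was positive for 10 of the 12, where it was so for 15.0% of all genes. SGK1, FKBP5, ZBTB16 and CEBPD were called in the same direction as this list under DHT at both times, and TSC22D3 in the opposite direction.

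Of 24 other glucocorticoid-induced genes, 21 were tested in the ligand experiment. DHT at 4 h raised 8 and lowered 1 (4.66% and 2.11% of all genes), and the largest rises were those of IRS2 (an insulin receptor substrate, 1.57 ± 0.14), TIPARP (an ADP-ribosyltransferase, 1.5 ± 0.07), PER1 (a circadian repressor, 1.49 ± 0.08) and ERRFI1 (an inhibitor of EGF receptor signalling, 0.86 ± 0.05). From 4 h to 24 h of DHT 11 fell and 3 rose (23.5% and 26.3% of all genes), with TIPARP (-1.66 ± 0.07) and IRS2 (-1.05 ± 0.13) falling most. Enzalutamide raised 5 and lowered 3 at 4 h (6.94% and 6.68% of all genes), and raised 5 and lowered 5 at 24 h (16.4% and 17.0%), with DDIT4, an inhibitor of mTORC1, at 0.75 ± 0.03 and 0.87 ± 0.03. In siControl cells enzalutamide raised 11 and lowered 5 of 22 genes tested (17.7% and 24.4% of all genes), led by DDIT4 (1.75 ± 0.10), PER1 (0.85 ± 0.11) and RASD1 (a small GTPase, 0.79 ± 0.11). In siGATA2 cells it raised 2, where 0.221% of all genes were called higher, and lowered 1. The share of all genes called lower in siGATA2 cells is not given here. The interaction was negative for 10 and positive for 3 (10.8% and 15.0% of all genes), with DDIT4 at -1.65 ± 0.14. PER1 rose both with DHT at 4 h and with enzalutamide in siControl cells. The median change over the list was 0.087 with DHT at 4 h and 0.216 with enzalutamide in siControl cells.

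A list of 17 receptors, chaperones and cofactors moved in both directions. HSP90AA1, the inducible cytosolic HSP90, fell by 0.36 ± 0.03 at 24 h of 10 μM and by 0.74 ± 0.05 in siControl cells at 25 μM, and STIP1, the co-chaperone that links HSP70 to HSP90, fell by 0.45 ± 0.03 and 0.58 ± 0.04. Both had positive interactions (0.70 ± 0.07 and 0.51 ± 0.05). HSD11B2, the enzyme that inactivates cortisol, fell by 0.39 ± 0.06 with 10 μM enzalutamide at 4 h and was not called at 24 h (-0.07 ± 0.06). In siControl cells, after 24 h at 25 μM, it rose by 0.37 ± 0.06. NR3C2, the mineralocorticoid receptor, rose with both ligands at 4 h, by 0.38 ± 0.09 with enzalutamide and 0.67 ± 0.09 with DHT. Of the 16 genes tested in the ligand experiment, enzalutamide raised 3 and lowered 4 at 4 h and raised 3 and lowered 7 at 24 h. DHT raised 2 and lowered 2 at 4 h, then raised 4 and lowered 4 at 24 h, when 26.9% and 23.2% of all genes were called. Of 17 tested in siControl cells, 5 rose and 7 fell. The shares of all genes are those given above for each comparison.

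Close relatives of the members were mixed. Of 26 family relatives tested, DHT at 4 h raised 6 and lowered 2 (4.66% and 2.11% of all genes), led by KLF5 (1.44 ± 0.09), KLF6 (0.85 ± 0.08) and SGK3 (0.68 ± 0.05). Enzalutamide at 4 h raised 9 and lowered 6 (6.94% and 6.68% of all genes), and the largest rises were in the C/EBP family, in DDIT3 (1.35 ± 0.06) and CEBPB (0.97 ± 0.06), while their relative CEBPD was not called. In siControl cells DDIT3 rose by 2.25 ± 0.08, CEBPB by 1.23 ± 0.14 and CEBPG by 0.71 ± 0.03, among 9 relatives that rose and 3 that fell (17.7% and 24.4% of all genes). In siGATA2 cells limma called 0 of 27 relatives with enzalutamide, and 6 of them had an unadjusted p below 0.05. Only 0.221% of all genes were called higher in that comparison, so the absence of calls is no result about the relatives. KLF15, which is also on the glucocorticoid list, fell with siGATA2 by 1.43 ± 0.05 under vehicle and by 1.67 ± 0.05 under enzalutamide, opposite in direction to KLF9.

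Genes whose pattern was most like each member were found by Pearson's r across all 22 libraries of both experiments, on log2 levels relative to the vehicle (or siControl vehicle) mean of each experiment. The 11644 genes compared (11645 for SGK1) had a mean of at least 1 CPM and 1 RPKM, and the libraries share controls and conditions, so r is a description. For TSC22D3 these were ATF4 (0.984), SARS (0.975) and GARS (0.969), and for FKBP5 CHRNA2 (0.986), ELL2 (0.975) and MPHOSPH9 (0.974). ELL2 is also on the list of androgen-induced genes. ZBTB16 was most like USP43 (0.978), RHOU (0.976) and ZMIZ1 (0.965), and SGK1 most like SLC2A12 (0.977), PIK3AP1 (0.96) and TIPARP (0.922), the last from the glucocorticoid list. KLF9 was most like PNRC1 (0.953), MAP1B (0.949) and SIRT1 (0.943), and CEBPD most like JAG1 (0.928), TBC1D1 (0.922) and HIVEP1 (0.916). Between members, r was highest for FKBP5 with ZBTB16 (0.909) and for SGK1 with ZBTB16 (0.89). TSC22D3 had an r below 0 with each of the other members, from -0.489 with FKBP5 to -0.0077 with CEBPD.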

How the data were processed

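The authors aligned the reads with TopHat2 and quantified genes in Partek, with hg19 named in the submitters' processing notes. For the ligand experiment they deposited estimated counts per gene without normalization, and for the siRNA experiment they deposited RPKM values. Genes missing from 1 of the ligand tables (20260 genes for vehicle, 21962 for the others) were set to 0. The labels number the vehicle samples 1 to 4. Of the 4 vehicle columns, 3 carry replicate number 1, each with a different set prefix. In a chi-square test of counts, averaged over genes, they differed by 1.53 to 1.56, somewhat above the value of 1 that pure sampling gives, while each of them stood 3.56 to 3.74 from the other replicate. They were treated as repeat runs, summed and counted as 1 sample.

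Counts were rounded and tested with edgeR 4.0.16 (TMM, filterByExpr, quasi-likelihood) in R 4.3.3 over 10 libraries in 1 model. RPKM values were tested with limma 3.58.1, with a variance trend, on log2(RPKM + 0.1) for genes above 0 in at least 3 libraries, over 12 libraries in 1 model. P-values were adjusted by Benjamini-Hochberg over all genes of a comparison. Both steps were tested on simulated data. DESeq2 1.42.0 and the other alternatives are described in the closing section. Reads behind low RPKM values were the smallest whole numbers within 0.001, after scaling by relative depth. Doses are those of the study's methods. Figures were drawn with matplotlib 3.10.9 in Python 3.11.15.

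The members and gene lists were chosen with earlier results of these data known. Beside the members, NR3C1 and GATA2 were always named, then list genes called in a comparison, up to 4 per list with the largest change, and for each member the 3 genes most like it. Some genes that this rule names are not reported here. Sequences are from RefSeq and, for primers, from the study's supplement. Coordinates are GRCh38 and were not used with the hg19 files.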

Additional observations from a re-analysis of the deposited data

Results flagged for a closer look

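Results are listed here where the effect of a treatment on a member differed between siGATA2 and siControl cells, or between 24 h and 4 h, by a called difference. Groups of 2 or 3 libraries were too small for a test of single outlying samples. The 2 enzalutamide libraries of 4 h differed from each other more than any other pair of ligand replicates (mean chi-square for each gene of 9.82).

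The effect of 25 μM enzalutamide in siGATA2 cells minus that in siControl cells was -0.99 ± 0.06 on the log2 scale for TSC22D3, 0.66 ± 0.04 for FKBP5, 0.39 ± 0.07 for ZBTB16 and -0.22 ± 0.04 for KLF9 (limma interaction, adjusted p = 2.29e-06, 4.69e-06, 0.00293 and 0.00273). For KLF9 neither effect was itself called. The effect of DHT at 24 h minus that at 4 h was -2.85 ± 0.15 for SGK1, 0.75 ± 0.04 for FKBP5, -0.68 ± 0.04 for ZBTB16 and -0.71 ± 0.04 for KLF9 (edgeR, adjusted p = 1.06e-08, 4.5e-09, 2.03e-08 and 2.44e-08). For KLF9 the effect changed from a rise to a fall. The effect of 10 μM enzalutamide at 24 h minus that at 4 h was 0.26 ± 0.05 for TSC22D3 and -0.24 ± 0.04 for FKBP5 (edgeR, adjusted p = 0.00157 and 0.000602). Both enzalutamide libraries of a time came from 1 sequencing set that held none of the other time. The fit with the set as a term counted the 4 vehicle columns as separate samples, though 3 of them carry replicate number 1. In that fit both calls held (edgeR, adjusted p = 0.0486 and 0.0148). That term ended 3 other calls, of KLF9 with enzalutamide at 4 h, KLF9 between DHT and enzalutamide at 4 h, and SGK1 with DHT at 24 h.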

How the results depend on the processing

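Of 78 pairs of a member and a comparison, 57 were called, and 51 of these kept their call and direction under every other way of processing that gave a p. These were DESeq2, RLE factors, no filter on low values, separate vehicle columns, the sequencing set as a term, other pseudocounts, a mean RPKM of at least 0.5, centred library medians, only the conditions compared, a replicate block and each library left out. The fit with the set term also kept the vehicle columns separate. The other 6 called pairs are those named as lost in the report, of KLF9, SGK1 and CEBPD. The set term ended 3 of them, KLF9 with enzalutamide at 4 h (0.077, adjusted p = 0.371) and between DHT and enzalutamide at 4 h (adjusted p = 0.062), and SGK1 with DHT at 24 h (adjusted p = 0.102). KLF9 with enzalutamide in siControl cells was gained with library medians centred (0.1161, adjusted p = 0.00883). The cause was not tested.

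The replicate block left 3 members called for enzalutamide at 4 h (KLF9 lost, adjusted p = 0.0648), 5 for DHT at 24 h (SGK1 lost, 0.0574) and 4 for enzalutamide in siControl cells (CEBPD lost, 0.0729), and changed no other call. Deviations from the group means correlated between same-numbered libraries at -0.103 to 0.063 (ligand) and -0.356 to 0.297 (siRNA). Without differently numbered pairs as a reference, these values do not decide whether same-numbered libraries belong together. With a fold over 2 and an unadjusted p below 0.05 the members called were 0 at 4 h and 1 at 24 h of enzalutamide, 3 and 2 for DHT, 0 and 1 between the times of enzalutamide and DHT, 1 for enzalutamide in siControl and 0 in siGATA2 cells, 0 and 1 for siGATA2 under vehicle and enzalutamide, and 0 for the interaction. In siGATA2 cells enzalutamide called 2 members with a pseudocount of 1 or a mean of at least 0.5 RPKM, KLF9 being added (adjusted p = 0.0469 and 0.0473), as it was without siControl enzalutamide replicate 3 (0.0316). Leaving out 1 library gave 3 to 5 members for enzalutamide in siControl cells and 1 to 2 in siGATA2 cells, and moved no other count by over 1.5 times.

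Signs turned only where no call was made. SGK1 with enzalutamide at 4 h was -0.0873 without enzalutamide 4 h replicate 2, -0.165 without vehicle replicate 1 (0.1919 without vehicle replicate 2 was the highest) and -0.002764 with the sequencing set as a term. CEBPD between the times of enzalutamide was -0.0879 without enzalutamide 24 h replicate 1 (0.2444 without replicate 2 was the highest), and TSC22D3 between the times of DHT was -0.000482 with the set term. Against the vehicle run of the same sequencing set alone, an alternative chosen after seeing the data, every called change kept its direction. There TSC22D3 was 0.665 and 0.982 at 4 h and 24 h of enzalutamide, and SGK1 was 3.74 at 4 h of DHT and 0.912 and 0.195 in the 2 sets at 24 h. Depth limits SGK1, with 33 to 54 counts in vehicle and enzalutamide libraries, and NR3C1, with 13 to 96 counts in all ligand libraries.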
